A study of Homo sapiens with 2 samples.

Results

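The genes described are 10 transcription factor genes in the established oral cancer cell line SAS, of human origin: TP63, SOX2, SOX9, KLF4, KLF5, GRHL2 and MYC, which act in squamous and other epithelial cells, and SNAI1, SNAI2 and TWIST2, which drive epithelial-mesenchymal transition (EMT). The members were all lines of the deposited RNA-seq table whose gene name is one of these symbols, 43 of 134092 transcripts and 10 of 24124 genes. Per the labels, 1 library came from SAS cells with stable expression of the lentiviral plasmid pLKO.AS2 holding ASC and a neo marker (ASC cells), and 1 from SAS cells with the same plasmid lacking ASC (control cells). ASC is the inflammasome adaptor protein encoded by PYCARD. Both lines were kept under G418 and puromycin in DMEM that held serum, and the sources used here do not say whether either is a single clone. The comparison asks how transcripts differ with and without added ASC. With 1 library per group there is no replicate check and no test between conditions, and intervals below cover counting error only.

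Squamous epithelium is built from basal cells whose identity depends on p63, the product of TP63. TP63 has an upstream promoter that gives TA forms, with a full transactivation domain, and an internal promoter that gives deltaN forms, which predominate in basal keratinocytes. SOX2 and TP63 lie on the same chromosome arm and are often gained together in squamous cancers. KLF4 acts in differentiating and KLF5 in proliferating epithelial cells, GRHL2 maintains junction genes, and MYC drives growth. Snail factors (SNAI1 and SNAI2) and Twist factors repress epithelial genes during EMT.

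The library of ASC cells had 31426491 listed reads and that of control cells 31289581. PYCARD had 266.5 RPKM in ASC cells against 1.36 RPKM in control cells, in the direction of the labels. RPKM is the number of reads scaled to transcript length and to library depth, and gene values are sums over the gene's transcripts. All 10 markers fixed for oral squamous epithelium reached 1 RPKM, with a summed level of 1479 RPKM in ASC cells and 1447 RPKM in control cells. Fibroblast markers summed to 28.2 RPKM in ASC cells and 23.8 RPKM in control cells, nearly all of it FBLN1. COL1A1 and COL3A1 were under 1 RPKM in both libraries. Endothelial markers summed to 29.1 and 23.4 RPKM in ASC and control cells, mostly EGFL7. CDH5 also reached 1 RPKM, with 2.23 RPKM in ASC cells and 1.23 RPKM in control cells, while PECAM1 was under 1 RPKM. Leukocyte markers summed to 24.7 and 26.2 RPKM in ASC and control cells, nearly all CD68, with PTPRC at 0.0542 RPKM in ASC cells and listed at 0 in control cells.

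The sequences shown are those that tell apart the TP63 and KLF5 forms described below. For TP63 they are the first coding bases of the main deltaN transcript, TP63-203, and of the longest TA transcript, TP63-201, from GENCODE release 29. Capitals mark bases that only one of the forms encodes, the first 60 of 324 for TA and all 42 for deltaN.
TP63-203: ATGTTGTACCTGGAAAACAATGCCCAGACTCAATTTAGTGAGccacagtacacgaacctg
TP63-201: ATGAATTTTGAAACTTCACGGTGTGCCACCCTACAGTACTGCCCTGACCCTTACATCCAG
The coding start lies at base 189789801 of chromosome 3 for TP63-203 and at base 189631516 for TP63-201 in hg38. The deltaN alpha transcripts differ further at the end of the exon that begins at base 189868580. It runs to base 189868716 in TP63-203 and to base 189868704 in TP63-212, and capitals mark the 12 bases between.
TP63-203: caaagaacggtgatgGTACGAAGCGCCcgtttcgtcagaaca
TP63-212: caaagaacggtgatgcgtttcgtcagaaca

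KLF5 has a pair of main start sites, and bases before each are shown from the RefSeq promoter windows on the plus strand of GRCh38.p14. The one is chr13:73054726-73054975, before the upstream start, and the other is chr13:73058755-73058791, before the downstream start in GENCODE. Capitals mark matches to 3 promoter motifs, searched on both strands, none of which overlap here. The TATA box was searched as TATAAA. For the motif that NF-Y is known to bind, the CAAT-type box, the letters were CCAAT. The GC box, known to be bound by Sp factors, was searched as GGGCGG.
KLF5 upstream start: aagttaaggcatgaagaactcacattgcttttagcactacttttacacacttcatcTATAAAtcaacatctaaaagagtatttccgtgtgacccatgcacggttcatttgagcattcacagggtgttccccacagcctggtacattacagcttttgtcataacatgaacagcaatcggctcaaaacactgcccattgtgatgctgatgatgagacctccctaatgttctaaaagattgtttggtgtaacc
KLF5 downstream start: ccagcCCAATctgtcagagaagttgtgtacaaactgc
The motifs are matches of letters only, and whether any of them acts at a start was not tested. Over the full window of 300 bases, the upstream promoter was 40.7% G or C. It had 1 match to the TATA box letters, far from the start, and none to either other motif. The downstream window was 71.3% G or C, with 2 CAAT-type boxes, of which 1 lies in the stretch shown, 2 GC boxes and no TATA box. Of all 35116 promoter windows in the table, 11.5% hold the TATA box, 34.6% the CAAT-type box and 44.95% the GC box. Of the 10 members, 5 have a window in the RefSeq table. RefSeq places the downstream start of KLF5 at base 73059005, past the GENCODE start at base 73058792.
The coding starts of the KLF5 transcripts also differ, as shown here with capitals for bases that KLF5-205, from the upstream start, does not encode.
KLF5-201: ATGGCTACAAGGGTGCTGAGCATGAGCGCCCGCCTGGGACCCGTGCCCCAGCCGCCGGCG
KLF5-205: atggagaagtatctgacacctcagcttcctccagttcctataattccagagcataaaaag
KLF5-205 begins coding at base 73061873, in the exon that both share, and encodes 366 amino acids in the frame of KLF5-201. KLF5-201 encodes 457, of which the first 91 are its own.

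The abundant factors were close in both libraries, and the differences lay among the low ones. SOX9 and KLF4 were higher in ASC cells and SOX2 was lower, each past 1.5-fold on the log2(RPKM + 1) scale, and no member passed 2-fold. This scale understates the differences of low genes. All 10 members reached 1 RPKM in at least 1 library and were compared. SOX2 did so only through control cells, where it is high. Its direction was fixed by this filter, so its call, though included in the counts that follow, adds nothing to them. Past 1.5-fold were 3 of 10 members, SOX2 included, against 4.19% of all 12471 genes compared. Of the members 2 were higher, SOX9 and KLF4, and 1 was lower, SOX2, against 2.38% and 1.81% of all genes. Low genes vary more. Among genes whose mean over the libraries is under 10 RPKM the share was 6.21%, where 3 of 5 members passed, SOX2 again included. Among genes with a mean of at least 10 RPKM it was 2.35%, and none of 5 members passed. Their log2 ratios lay between -0.24 and 0.03. Past 2-fold the background was 0.882%. The members were chosen with earlier results of these data known, so nothing is concluded from setting their counts against these shares. The median log2 ratio was 0.03 over the members and 0.01 over all genes compared. Above 0 lay 7 members, against 52.0% of all genes.

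**Figure D1:**
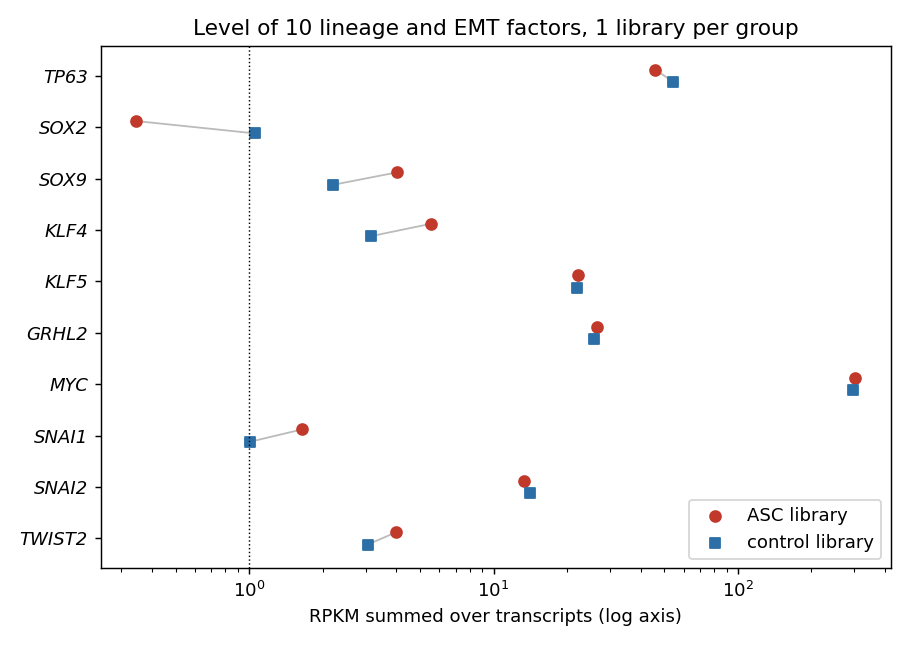
RPKM of each of the 10 factors, on a log axis, in ASC cells (circles) and control cells (squares), 1 library per group; the dotted line marks 1 RPKM. MYC was the highest in both libraries and SOX2 the lowest in ASC cells, and the gaps are widest for SOX2, SOX9, KLF4 and SNAI1.

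The calls depend on the scale and on position. With a pseudocount of 3 RPKM none of the 3 calls held, and with 0.1 RPKM SNAI1 joined them. After subtraction of the median of the 50 nearest compared genes on the chromosome, SOX9 had 0.584 and KLF4 had 0.570. Both lay just short of the value that marks 1.5-fold, which left SOX2, whose direction the filter of 1 RPKM had fixed. From its most abundant transcript alone, KLF4 had 0.54 and was not called.

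**Figure D2:**
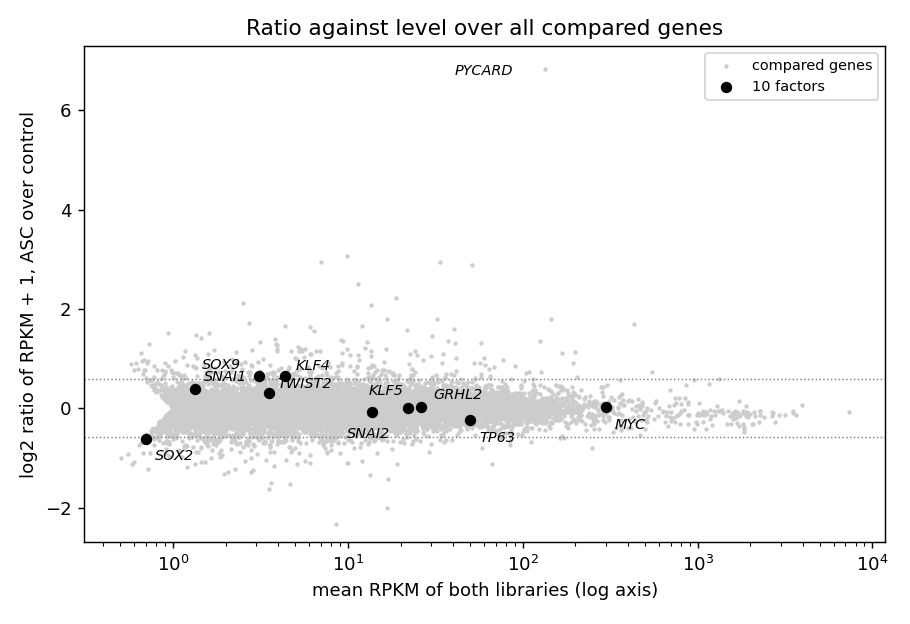
Log2 ratio of RPKM + 1, ASC over control, against mean RPKM on a log axis for all 12471 compared genes (grey) and the 10 factors (black, named); dotted lines mark 1.5-fold. SOX9 and KLF4 lie just above the upper line and SOX2 just below the lower one, while MYC, GRHL2 and KLF5 lie at 0.

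TP63 (ENSG00000073282.12; chromosome 3, 189631416 to 189897279, plus strand) had 46.0 RPKM in ASC cells against 54.5 RPKM in control cells, with 6380 against 7418 estimated reads. The log2 ratio of RPKM was -0.24, within 1.5-fold. The log2 ratio of reads scaled to depth was -0.22, with an exact 95% interval of -0.27 to -0.18. TP63 was thus slightly lower in ASC cells by more than counting error.

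Nearly all TP63 came from the internal promoter in both libraries. The 8 deltaN transcripts held 98.8% of TP63 RPKM in ASC cells and 98.4% in control cells, at 45.4 and 53.6 RPKM. The 5 TA transcripts summed to 0.570 RPKM in ASC cells against 0.849 RPKM in control cells. By estimated reads the TA share was 1.26% in ASC cells (95% exact interval 0.995 to 1.56) and 1.22% in control cells (0.989 to 1.5), so no difference in promoter use was detectable at this depth. By RPKM the TA shares were 1.24% and 1.56% in ASC and control cells, a measure that also depends on the length of each transcript. The TA form TP63-201, which encodes the alpha end, had 0.382 RPKM in ASC cells against 0.283 RPKM in control cells. TP63-202, a TA form with the shorter delta end, had 0.186 RPKM in ASC cells against 0.564 RPKM in control cells. These forms differ in sign, and reads they share with the far more abundant deltaN forms were divided by estimate.

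The C-terminal end of p63 is set by splicing, and the alpha end, which carries a SAM domain, prevailed. Transcripts with the alpha stop codon held 98.1% of TP63 reads in ASC cells and 98.6% in control cells. Gamma forms held 0.645% and 0.564% and delta forms 0.504% and 0.594% in ASC and control cells, with overlapping intervals for each. Transcripts with no annotated stop codon, TP63-208 and the retained-intron form TP63-213, held 0.667% in ASC cells (0.488 to 0.907) and 0.247% in control cells (0.144 to 0.383), and these intervals do not overlap. Their log2 ratio of reads was 1.25 (0.43 to 2.13), from 42.5 estimated reads in ASC cells and 18.3 in control cells. The beta forms had 2.53 estimated reads in ASC cells and 0.996 in control cells, too few to compare.

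Within deltaN alpha, the transcript without the 12 capital bases shown above differed most. TP63-212 had 10.3 RPKM in ASC cells against 14.8 RPKM in control cells, with a log2 ratio of reads of -0.54 (95% interval -0.68 to -0.39). TP63-203, the main deltaN alpha transcript, had 33.4 RPKM in ASC cells against 37.9 RPKM in control cells, with a log2 ratio of reads of -0.20 (-0.25 to -0.14). The short exon end held 10.1% of TP63 reads in ASC cells (9.35 to 10.8) and 12.5% in control cells (11.8 to 13.3). By RPKM it held 22.4% in ASC cells and 27.2% in control cells. The measures differ with transcript length, and TP63-212 is annotated with 1749 bases and TP63-203 with 4668. By reads the share of TP63-212 shifted by 2.44 percentage points. That is smaller than the median of 4.0 points over the transcripts that shifted most in each of 10451 genes, so larger shifts were common.

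**Figure D3:**
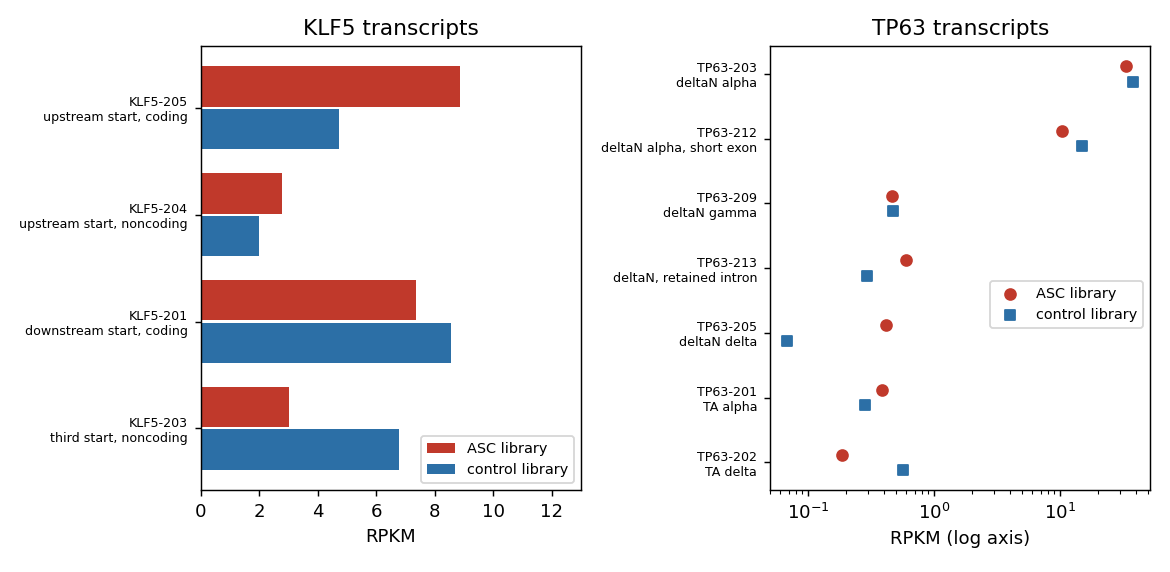
RPKM of KLF5 transcripts (left, bars from 0) and of the TP63 transcripts with the highest levels or named here (right, points on a log axis) in ASC and control cells, 1 library each. KLF5-205 was higher and KLF5-203 lower in ASC cells, while the deltaN alpha forms of TP63 lie far above the TA forms in both.

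SOX2 and SOX9 encode HMG-box factors, SOX2 linked to the squamous lineage and to pluripotency and SOX9 to cartilage and epithelial progenitors. SOX2 (ENSG00000181449.3; chromosome 3, 181711924 to 181714436, plus strand), a gene with 1 transcript, had 0.346 RPKM in ASC cells against 1.06 RPKM in control cells, with 31 against 95 reads. It was 3.05-fold lower in plain RPKM, with a log2 ratio of reads of -1.62 (95% interval -2.26 to -1.02). On the log2(RPKM + 1) scale this became -0.61. SOX2-OT, which overlaps SOX2 on the same strand, was under 0.1 RPKM in both libraries (0.0407 RPKM in ASC cells against 0.0808 RPKM in control cells).

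SOX9 (ENSG00000125398.6; chromosome 17, 72121020 to 72126420, plus strand) had 4.01 RPKM in ASC cells against 2.21 RPKM in control cells, with 563 against 311 reads. It was 1.82-fold higher, with a log2 ratio of reads of 0.85 (95% interval 0.65 to 1.05). SOX9 and SOX2 thus lay on opposite sides of 0, but the filter had fixed the direction of SOX2, so nothing is concluded from this. SOX9-AS1, on the other strand and overlapping, had 0.493 RPKM in ASC cells against 0.262 RPKM in control cells, and the library kit does not mark strand.

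KLF4 and KLF5 encode zinc finger factors that bind similar GC-rich sites. KLF4 (ENSG00000136826.14; chromosome 9, 107484852 to 107490482, minus strand) had 5.53 RPKM in ASC cells against 3.15 RPKM in control cells, with 510 against 293 reads. It was 1.76-fold higher, with a log2 ratio of reads of 0.79 (95% interval 0.58 to 1.01). Its protein-coding transcripts summed to 3.03 RPKM in ASC cells against 1.64 RPKM in control cells. Its retained-intron transcripts summed to 2.51 RPKM in ASC cells against 1.51 RPKM in control cells, so both classes were higher in ASC cells. KLF4-201, the main coding transcript, had 2.58 RPKM in ASC cells against 1.46 RPKM in control cells. Between the retained-intron transcripts the signs differed: KLF4-205 had 1.95 RPKM in ASC cells against 0.551 RPKM in control cells. KLF4-204 had 0.557 RPKM in ASC cells against 0.959 RPKM in control cells and was too low to be compared. Its share of KLF4 reads was 10.5% in ASC cells and 31.7% in control cells, and 2.30% of 10451 genes had a transcript that shifted by as much or more. These transcripts overlap along most of the gene, so their split rests on the authors' estimate.

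KLF5 (ENSG00000102554.13; chromosome 13, 73054976 to 73077542, plus strand) had nearly the same total in both libraries, 22.2 RPKM in ASC cells and 22.0 RPKM in control cells, but a different make-up. KLF5-205, the coding transcript of the upstream start, had 8.87 RPKM in ASC cells against 4.72 RPKM in control cells, with 933 against 499 reads. Its log2 ratio of reads was 0.90 (95% interval 0.74 to 1.06). KLF5-204, a noncoding transcript of the same start, had 2.76 RPKM in ASC cells against 1.98 RPKM in control cells, also higher. KLF5-201, from the downstream start, had 7.35 RPKM in ASC cells against 8.54 RPKM in control cells, with a log2 ratio of reads of -0.23 (-0.36 to -0.10). KLF5-203, a noncoding transcript that starts further on, had 3.03 RPKM in ASC cells against 6.77 RPKM in control cells, with 82.9 against 185.8 reads.

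The upstream start, 3816 bases before the downstream one, held 50.3% of KLF5 reads in ASC cells (95% exact interval 48.1 to 52.5) and 30.8% in control cells (28.7 to 33.0). The intervals do not overlap. Among protein-coding transcripts alone the shares were 49.9% and 31.4% in ASC and control cells. The share of KLF5-205 differed by 18.5 percentage points, and 3.40% of 10451 genes with at least 2 transcripts and 100 reads in each library had a transcript that shifted as much or more. A shift of at least 10 points was found in 15.5% of these genes. The coding forms KLF5-205 and KLF5-201 differ mainly in their first exons, of 183 bases at the upstream start and 797 at the downstream start. How the reads of shared exons were divided was set by the authors' estimate. Counted by reads, which the sum of RPKM over transcripts of unequal length does not follow, KLF5 as a whole was slightly higher in ASC cells, with a log2 ratio of 0.15 (0.05 to 0.24).

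**Figure D4:**
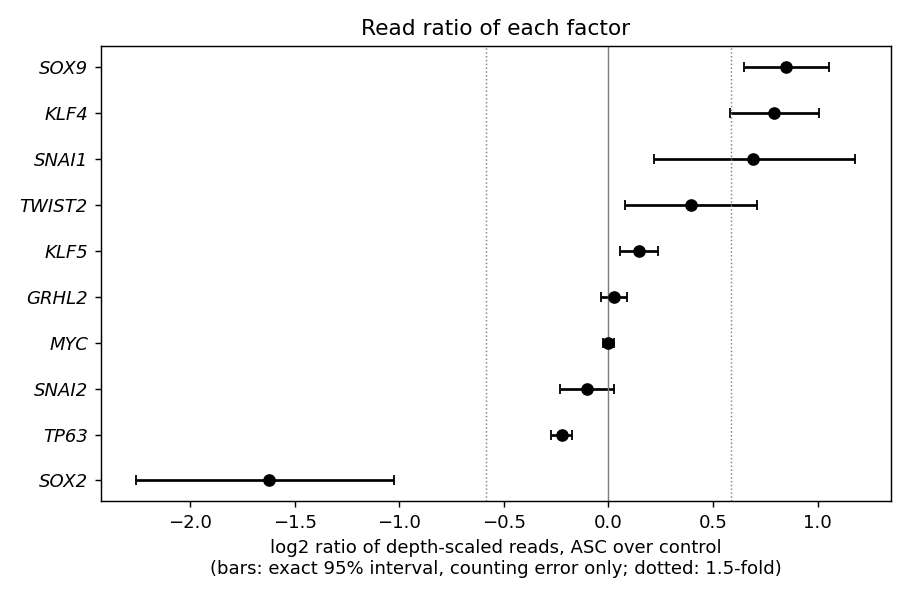
Log2 ratio of depth-scaled estimated reads, ASC over control, for each factor, with exact 95% intervals for counting error only; dotted lines mark 1.5-fold. The intervals of SOX9, KLF4, SNAI1, TWIST2 and KLF5 lie above 0, those of SOX2 and TP63 below 0, and those of GRHL2, MYC and SNAI2 include 0.

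GRHL2, a Grainyhead factor that maintains epithelial junction genes, had 26.5 RPKM in ASC cells against 25.8 RPKM in control cells. Its log2 ratio of reads was 0.03, with an interval of -0.03 to 0.09. The gene (ENSG00000083307.11) lies on the plus strand of chromosome 8 from 101492432 to 101669726. There the 50 nearest compared genes had a median log2 ratio of -0.23, and GRHL2 stood 0.26 above it. Its main transcript, GRHL2-201, held 93.1% of its reads in ASC cells and 93.4% in control cells.

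MYC was by far the most abundant of the 10, at 300.3 RPKM in ASC cells and 295.6 RPKM in control cells, rank 186 and 188 of the compared genes. With 22162 and 22079 reads, its log2 ratio of reads was 0.00 with an interval of -0.03 to 0.03, the narrowest of the members. MYC (ENSG00000136997.17) lies on the plus strand of chromosome 8 from 127735434 to 127741434. Of its 7 transcripts, 6 were compared and none passed 1.5-fold, against 11.0% of all transcripts compared. MYC-206, which starts furthest downstream, had the highest log2 ratio at 0.20, with 66.2 RPKM in ASC cells against 57.5 RPKM in control cells. MYC-205 had 90.2 RPKM in ASC cells against 96.5 RPKM in control cells.

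Among the EMT factors SNAI2 was the most abundant and close in both libraries, while SNAI1 and TWIST2 were low. SNAI2 (ENSG00000019549.11; chromosome 8, 48917604 to 48921740, minus strand), which encodes Slug, had 13.3 RPKM in ASC cells against 14.2 RPKM in control cells, with a log2 ratio of reads of -0.10 (95% interval -0.23 to 0.02). SNAI1 (ENSG00000124216.3; chromosome 20, 49982999 to 49988886, plus strand), which encodes Snail, had 1.65 RPKM in ASC cells against 1.01 RPKM in control cells, with 99 against 61 reads. It was 1.63-fold higher in plain RPKM, with a log2 ratio of reads of 0.69 (0.22 to 1.18), and 0.40 on the log2(RPKM + 1) scale. Its neighbours on chromosome 20 had a median of 0.21, which leaves 0.19.

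TWIST2 (ENSG00000233608.3; chromosome 2, 238848032 to 238910543, plus strand), a basic helix-loop-helix factor, had 4.0 RPKM in ASC cells against 3.06 RPKM in control cells, with 198 against 150 reads and a log2 ratio of reads of 0.39 (0.08 to 0.71). TWIST2-202 held 94.3% of TWIST2 reads in ASC cells and 87.0% in control cells. The level order in ASC cells thus ran from SNAI2 over TWIST2 to SNAI1, and it was the same in control cells.

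Over all members, 21 of 43 transcripts reached 1 RPKM in either library and were compared. Past 1.5-fold were 5 of them, against 11.0% of 34527 compared transcripts, and none passed 2-fold, against 2.32%. Of the 5, 3 were higher and 2 lower, against 5.66% and 5.34% of all. Higher in ASC cells were KLF4-205, KLF5-205 and the SOX9 transcript, and lower were KLF5-203 and the SOX2 transcript. For 2 of these 5 the filter fixed the direction, since KLF4-205 reached 1 RPKM only in ASC cells and the SOX2 transcript only in control cells. The other 22 transcripts stayed under 1 RPKM in both libraries.

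Relatives of the members within the same families were mostly close in both libraries, as were most genes, of which 4.19% passed 1.5-fold either way. TP73, a relative of TP63, had 2.78 RPKM in ASC cells against 4.37 RPKM in control cells, with a log2 ratio of -0.51. Of 5 compared SOX genes outside the members, none passed 1.5-fold, and SOX12 and SOX7 had -0.30 and -0.24. Of 9 compared KLF genes outside the members, KLF6 alone passed 1.5-fold. KLF6, an early response factor, had 36.8 RPKM in ASC cells against 23.4 RPKM in control cells. KLF7 had a log2 ratio of 0.29 and KLF11 one of -0.22. The 4 compared relatives of GRHL2, among them GRHL3 (0.13) and GRHL1 (0.12), lay between 0.02 and 0.13.

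Genes bound by or known as targets of p63 in basal epithelium had a median of -0.02. Of these 14 lay above 0 and 16 below, where 52.0% of all genes lay above 0. The 14 include ZNF750, which reached 1 RPKM only in ASC cells, so the filter fixed its direction. Of 30, all compared, 1 was higher past 1.5-fold, against 2.38% of all genes, and 4 were lower, against 1.81% of all genes. The lower ones included FAT2, a protocadherin, at 12.6 RPKM in ASC cells against 20.6 RPKM in control cells, the desmosome gene PKP1 at 3.78 RPKM in ASC cells against 6.56 RPKM in control cells, and the hemidesmosome collagen gene COL17A1 at 25.9 RPKM in ASC cells against 40.9 RPKM in control cells. The remaining one, named after its value was seen, was DST, a hemidesmosome linker gene, at 30.8 RPKM in ASC cells against 48.4 RPKM in control cells. Of 19 compared GRHL2 targets none passed 1.5-fold, against 4.19% of all genes. Their median was 0.07, with ELF3, an epithelial ETS factor, at -0.39 and the protease inhibitor gene SPINT1 at 0.39.

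The MYC network, partners and antagonists of MYC, had a median of -0.15 over 10 compared genes without MYC. Of these 8 lay below 0, as did 5985 of all 12471 genes compared. MLXIPL, a glucose-responsive relative, was the 1 past 1.5-fold, against 4.19% of all genes. It had 2.75 RPKM in ASC cells against 5.16 RPKM in control cells. MXI1, a MYC antagonist, had -0.37. Of 26 MYC targets none passed 1.5-fold, against the same 4.19%, and 17 lay below 0, with a median of -0.10. CCND2, a cyclin gene, had 0.52 and the nucleolar gene NPM1 -0.30.

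Most other EMT factors were low. Of 14 in the list, members included, 8 were under 1 RPKM in both libraries, among them ZEB1 (0.0638 RPKM in ASC cells against 0.147 RPKM in control cells), ZEB2 and TWIST1 (0.539 RPKM in ASC cells against 0.722 RPKM in control cells). Of the 3 compared outside the members, HMGA2, a chromatin protein gene, had 76.9 RPKM in ASC cells against 74.6 RPKM in control cells, and TCF3 had a log2 ratio of -0.28. Of 13 compared epithelial genes that Snail factors repress, 9 lay above 0, against 52.0% of all genes, with a median of 0.23. MUC1, a membrane mucin, alone passed 1.5-fold, against 4.19% of all genes. It had 2.99 RPKM in ASC cells against 1.35 RPKM in control cells. The keratin gene KRT18 had a log2 ratio of 0.49 and the tight junction gene OCLN one of 0.42.

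Mesenchymal genes of EMT had a median of 0.36 over 11 compared, with 4 higher past 2-fold, against 0.617% of all genes. None was lower past 1.5-fold, against 1.81% of all genes. Among the 4 higher ones, the matrix genes FN1 and TNC and the cadherin gene CDH11 had log2 ratios of 1.36, 1.16 and 1.12. CDH11 had 1.27 RPKM in ASC cells against 0.0457 RPKM in control cells. CDH11 passed the filter of 1 RPKM only through ASC cells, where it is high, so its direction was fixed by the filter. Its call adds nothing to the count, and its value is also part of the median of 0.36. Both the epithelial and the mesenchymal list had medians above that of all genes, 0.01. The lists were chosen with earlier results of these data known, so nothing is concluded from this.

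**Figure D5:**
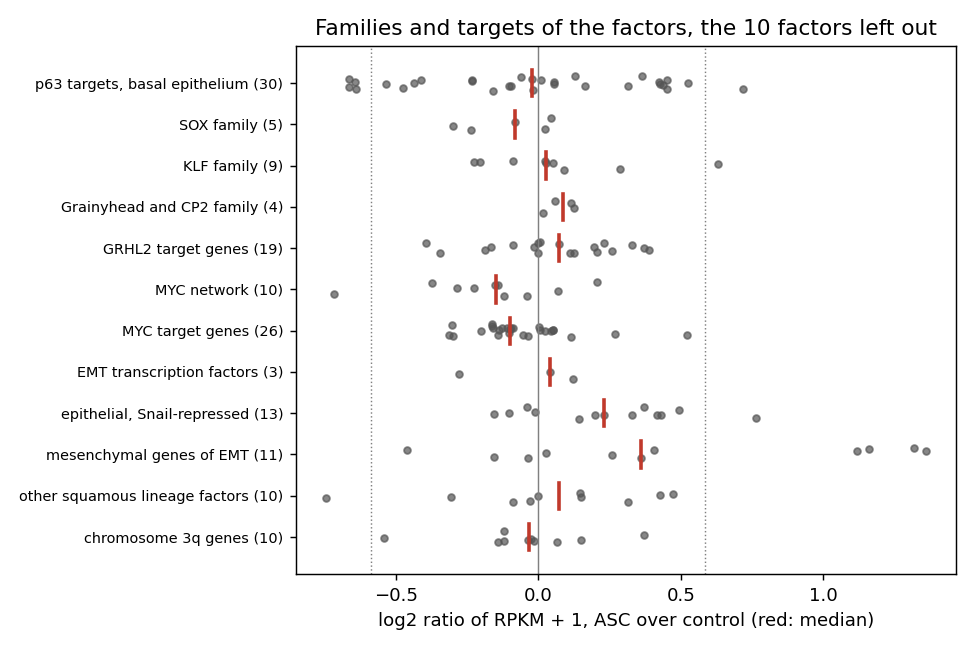
Log2 ratio of RPKM + 1, ASC over control, of each compared gene (points) in 12 lists of relatives, targets and neighbours of the factors, with the factors left out, medians in red and the number compared in brackets; dotted lines mark 1.5-fold. Points spread to both sides in the p63 target list, and the 4 points farthest right, FN1, TNC and CDH11 among them, are in the mesenchymal list.

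Of 10 compared squamous lineage factors outside the members, PAX9 alone passed 1.5-fold, against 4.19% of all genes. PAX9, a paired box factor of oral epithelium, had 1.76 RPKM in ASC cells against 3.63 RPKM in control cells. TFAP2C had a log2 ratio of 0.47 and ZNF750, an epidermal differentiation factor, one of 0.43. ZNF750 reached 1 RPKM only in ASC cells (1.43 RPKM against 0.808 RPKM in control cells), so the filter fixed its direction. The 10 compared genes of the long arm of chromosome 3 often gained with SOX2 and TP63 had a median of -0.03. None of them passed 1.5-fold, against the same 4.19%. PIK3CA had -0.54 and SENP2 0.37. The log2 ratio of reads was smaller for PIK3CA, at -0.21 (-0.33 to -0.10), and was 0.29 for SENP2 (0.19 to 0.39). Near SOX2 and TP63 themselves the median of the 50 nearest compared genes was 0.04 and 0.01, near that of all genes.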

How the data were processed

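Per the labels' protocols, TRIzol was used to extract RNA, and libraries of poly(A) RNA were built with the TruSeq RNA kit, which keeps no strand information. The deposited table holds estimated counts of reads per transcript, fractional and unscaled, and RPKM values, both per the file headers. Coordinates are on hg38, per the submitters' processing notes. No aligner, quantifier or annotation release is given in the sources used here. GENCODE release 29 gave transcript types and exons (98.4% of identifiers had the same version). In 285 lines the gene name was a date, of which 284 were restored.

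RPKM was summed per gene. Genes or transcripts that reached 1 RPKM in either library were compared as log2((ASC + 1) / (control + 1)), and called past 1.5-fold, with 2-fold beside it. Exact (Clopper-Pearson) 95% intervals use rounded estimated counts scaled to listed reads. Error in assigning reads to transcripts is not covered, and reads are not independent molecules.

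The members and the 13 context lists were chosen with earlier results of these data known. Of 195 listed genes 183 were found. Named genes are the members, PYCARD with member transcripts that reach 1 RPKM, and up to 4 genes of each list whose log2 ratio is furthest from 0, and some of these are not reported here or are given as counts only. Member transcripts under 1 RPKM were named after their values were seen. The transcript share comparison over all genes, the KLF5 start groups, the TP63 end and exon groups and the split at 10 RPKM were added after the values were seen. Alternatives were other pseudocounts (0.1 and 3), filters (none and 5 RPKM), median centring, TMM scaling (edgeR 4.0.16), CPM, the highest transcript and subtraction of neighbours. The gene step was tested on simulated data. Analyses used Python 3.11.15, pandas 2.3.3, numpy 2.4.6, scipy 1.17.1 and R 4.3.3.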

Additional observations from a re-analysis of the deposited data

How the results depend on the processing

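The 3 members past 1.5-fold became 0 with a pseudocount of 3 RPKM and 0 at a threshold of 2-fold. A filter of 5 RPKM left 6 members to compare, with 1 called, KLF4. KLF4 reached 5 RPKM only in ASC cells (5.53 RPKM against 3.15 RPKM in control cells), so this filter fixed its direction. Subtraction of neighbours left 1 call, SOX2, whose direction the filter of 1 RPKM had fixed. The counts under the other alternatives ran from 2, with the highest transcript, to 4, with a pseudocount of 0.1 RPKM. Called member transcripts, 5 as reported, were 2 with a pseudocount of 3 RPKM, 2 with a filter of 5 RPKM and 0 at 2-fold. The filter of 5 RPKM fixed the directions of its 2 calls, since KLF5-205 reached it only in ASC cells and KLF5-203 only in control cells. Of 155 compared genes in the context lists, which here include the 10 members, 16 passed 1.5-fold, where 4.19% of all genes did. Among the 16 are SOX2 and CDH11, whose directions were fixed by the filter. The lists were also chosen with earlier results of these data known, so nothing is concluded from this share. With a pseudocount of 3 RPKM 8 passed, and 4 passed 2-fold, where 0.882% of all genes did. The TA share of TP63 in control cells was 1.56% by RPKM and 1.22% by reads. Of 86 recomputed member ratios, 78 stayed within the counting interval of the reported one and 3 had the other sign, KLF5 and MYC with the highest transcript (-0.19 and -0.10) and MYC with CPM. The KLF5 upstream shares by RPKM, chosen after seeing the data, were 52.3% in ASC cells and 30.4% in control cells. SOX2 and SNAI1 rest on under 100 reads per library. No paired analysis was possible because each group has 1 library.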

Other observations

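Some low values lay outside the comparisons and were picked after they were seen. SOX6, a relative of SOX9, had 0.266 RPKM in ASC cells against 0.892 RPKM in control cells, under the filter in both. The deltaN transcript TP63-205, with the delta end, had 18.6 estimated reads in ASC cells against 3.05 in control cells. KLF4-206, a coding transcript, had 31.1 estimated reads in ASC cells against 1.78 estimated reads in control cells. MYCN had 0.0663 RPKM in ASC cells against 0.0165 RPKM in control cells, and MYCL 0.236 RPKM in ASC cells against 0.509 RPKM in control cells, so MYC was the only MYC gene of the list above 1 RPKM.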
